A study of Mus musculus with 4 samples.

Results

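The genes described are 10 ligands of the TNF superfamily, chosen by name: Tnfsf4, Tnfsf8, Tnfsf9, Tnfsf10, Tnfsf11, Tnfsf13b, Tnfsf14, Tnfsf15, Cd70 and Cd40lg. The choice was made with earlier results of these data known. The ligands are 10 of 24343 genes in the count table, each with 1 deposited transcript row. RNA-seq was carried out on mouse group 3 innate lymphoid cells (ILC3s), sorted as Lin-, CD127+ and IL23R-GFP+ from IL23R-GFP/WT mice, which carry the GFP reporter on 1 copy of the IL-23 receptor locus. The cells were stimulated with TL1A, the product of Tnfsf15 (2 libraries), or kept in medium (2 libraries), and both groups share this genotype and this sort. The labels give neither age, sex and source tissue nor the dose of TL1A and the length of stimulation. They also do not say whether libraries stand for separate animals or cultures. The p-values therefore rest on the spread between 2 libraries a condition, pooled over genes, and that spread may be technical.

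TNF superfamily ligands are mostly trimeric proteins on the cell surface, some of which are also shed. They bind receptors of the TNF receptor superfamily, which recruit TRAF adaptors and activate NF-κB, or in some cases start cell death. Several of the ligands described are costimulators of T cells and B cells, and ILC3s and the related lymphoid tissue inducer cells are known to use ligands of this family in contacts with lymphocytes and stromal cells.

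The libraries held 11849977 and 12605164 assigned reads with TL1A and 11495636 and 12222552 in medium. ILC3 genes were read: Il7r (CD127) averaged 1200 ± 12.5 CPM with TL1A and 3606 ± 77.2 CPM in medium, and Il23r was also present in every library. Kit, another ILC3 marker, had 0 reads in 3 libraries and 1 in medium replicate 2, but reads shared between its 2 deposited rows were not counted.

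For 6 of the 10 ligands a promoter was found by symbol in a RefSeq table (build GRCm38.p6), from which the 250 bases before the start site are used. Those of Tnfsf11, Tnfsf15 and Tnfsf8, which rose with TL1A, are shown with that of Tnfsf14, which did not pass the test, so that a reader can set them side by side. Capitals mark matches, on either strand, to the NF-κB consensus, to the AP-1 motif TGANTCA or to the TATA box TATAAA.
Tnfsf11, chr14:78308044-78308293, minus strand: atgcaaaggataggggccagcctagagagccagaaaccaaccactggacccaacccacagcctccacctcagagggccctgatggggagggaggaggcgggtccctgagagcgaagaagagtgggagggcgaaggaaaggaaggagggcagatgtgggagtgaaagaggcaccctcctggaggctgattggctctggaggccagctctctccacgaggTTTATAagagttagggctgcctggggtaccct
Tnfsf15, chr4:63745060-63745309, minus strand: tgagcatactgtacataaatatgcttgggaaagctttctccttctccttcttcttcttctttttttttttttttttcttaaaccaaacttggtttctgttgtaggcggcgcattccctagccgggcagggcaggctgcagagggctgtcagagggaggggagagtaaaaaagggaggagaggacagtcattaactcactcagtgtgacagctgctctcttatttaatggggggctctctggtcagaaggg
Tnfsf8, chr4:63861285-63861534, minus strand: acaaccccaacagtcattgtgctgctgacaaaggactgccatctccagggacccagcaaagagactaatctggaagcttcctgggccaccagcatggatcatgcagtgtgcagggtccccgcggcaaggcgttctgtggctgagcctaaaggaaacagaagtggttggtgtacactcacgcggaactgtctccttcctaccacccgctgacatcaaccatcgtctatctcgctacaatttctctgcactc
Tnfsf14, chr17:57194182-57194431, minus strand: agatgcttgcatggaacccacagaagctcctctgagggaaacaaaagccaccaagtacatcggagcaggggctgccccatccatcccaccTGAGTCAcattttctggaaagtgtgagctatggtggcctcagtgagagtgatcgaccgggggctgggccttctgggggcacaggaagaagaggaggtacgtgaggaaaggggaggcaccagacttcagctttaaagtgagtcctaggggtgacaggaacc

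None of the 6 ligands had an NF-κB consensus match in this window, and 3.9% of 32851 promoter windows of the same length did. The capitals in Tnfsf11 are a TATA box match, read on the opposite strand, that begins 32 bases before the start site; 12.4% of all windows held such a match. The capitals in Tnfsf14 are an AP-1 match 160 bases before the start site, and an alternative start of Tnfsf13b had an AP-1 match as well, against 6.75% of all windows. Tnfsf15, Tnfsf8 and Tnfsf10 had no match to any of the 3 motifs. A match is a string of letters and was not tested as a binding site, and a missing match says only that these letters are not in this window.

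Of the 10 ligands, 9 had enough reads to be tested, and 7 of these rose with TL1A, none fell and 2 did not pass (edgeR quasi-likelihood test, Benjamini-Hochberg adjusted p under 0.05 over all genes). Over all 9852 genes tested, 20.6% were called higher and 21.7% lower, or 42.3% in either direction. All 7 changed by at least 2-fold, against 8.77% of tested genes that were called with such an increase, and 4 of them by at least 8-fold, against 2.1%. Cd70 and Tnfsf15, which are among these 4, had enough reads for the test only through their TL1A libraries. Their medium reads were 7 and 3, and 10 and 5, so only a call of higher was open to them. The median log2 fold change was 2.97 over the tested ligands and -0.029 over all genes tested. It was 0.74 over the 5 tested ligands of the superfamily outside the 10. As the 10 were chosen with earlier results of these data known, these contrasts describe them and test nothing. The 7 that rose were Cd70, Tnfsf15, Tnfsf11, Tnfsf4, Tnfsf9, Tnfsf8 and Tnfsf10, and each was higher in both TL1A libraries than in either medium library. Groups did not overlap for 8 of the 9 tested ligands and for 72.2% of all tested genes. In bulk RNA, a change in the number of expressing cells and a change in RNA per cell cannot be told apart.

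**Figure D1:**
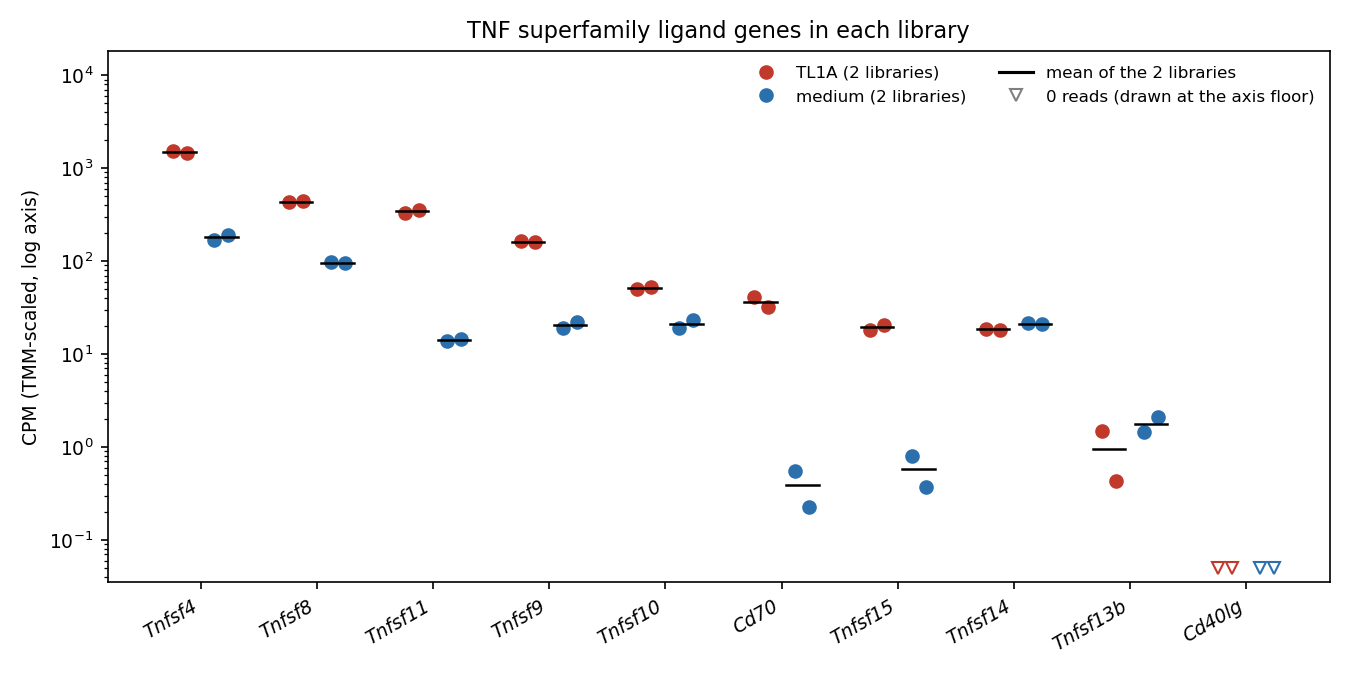
Level of each of the 10 ligand genes in each library, in CPM (TMM-scaled) on a log axis, TL1A left of medium; points are libraries and bars their mean. Tnfsf4 is the highest in both conditions, Cd70 and Tnfsf15 lie below 1 CPM in medium, and Cd40lg has 0 reads in every library; levels are not corrected for transcript length.

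Tnfsf4 had the highest level per transcript length of the 10 ligands in both conditions. It encodes OX40L, which binds OX40 on activated T cells. Tnfsf4 had 16453 and 16963 reads (1530 and 1463 CPM) with TL1A, against 2146 and 2530 reads (170.9 and 189.5 CPM) in medium. CPM are read counts scaled to a common library size by TMM. The lowest TL1A library stood several times above the highest medium library, and the change was 8.3-fold (log2 fold change 3.05, 95% interval 2.87 to 3.24, edgeR adjusted p = 3.09e-07). By mean CPM Tnfsf4 ranked 64 among the 9852 tested genes with TL1A and 1246 in medium, without correction for transcript length. The tested genes whose pattern over the 4 libraries was nearest to that of Tnfsf4, by Euclidean distance of centred log2 CPM, were H2-Aa (0.0654), Tnfsf9 (0.112) and Anxa2 (0.115). With 4 libraries in 2 conditions, this measure mostly reflects the size of the change.

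Tnfsf9 encodes 4-1BBL, the ligand of the T cell and NK cell costimulatory receptor 4-1BB. Its level was 165.9 and 159.1 CPM with TL1A, against 19.2 and 22.2 CPM in medium. The log2 fold change was 2.97 (95% interval 2.70 to 3.25, edgeR adjusted p = 1.86e-06), and its interval overlaps that of Tnfsf4. The span of Tnfsf9 in GRCm38 overlaps a predicted gene, Gm11110, which had 268 and 285 reads with TL1A and 212 and 250 in medium. The sources used here do not say whether the authors' counting used strand, so some reads of this locus may be missing or misplaced. The spans of Cd70 and Tnfsf15 each overlap 1 RefSeq gene without a deposited row. The effect on their counts was not tested.

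Tnfsf8 encodes CD30L, whose receptor CD30 is found on activated lymphocytes. It had 433.5 and 438.9 CPM with TL1A, against 97.2 and 95.9 CPM in medium. Replicates lay close together, and the log2 fold change of 2.18 had a 95% interval of 2.01 to 2.35 (edgeR adjusted p = 8.7e-07). This interval lies below those of Tnfsf4 and Tnfsf9, but the difference between the ligands was not tested.

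Cd70, the ligand of the lymphocyte costimulatory receptor CD27, was almost unread in medium. It had 443 and 371 reads (41.2 and 32 CPM) with TL1A, against 7 and 3 reads (0.557 and 0.225 CPM) in medium. The groups were far apart, and the fitted log2 fold change of 6.53 (95% interval 5.73 to 7.32, edgeR adjusted p = 6.84e-06) ranked 52 of 9852 genes. With only 10 medium reads in all, the size of the change is loose: the ratio of pooled, scaled counts was 94.4, with an exact (Clopper-Pearson) 95% counting interval of 51 to 197.5, which covers counting error only. The log2 fold change was 7.27 without medium replicate 1 and 6.03 without medium replicate 2.

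Cd40lg, which encodes the CD40 ligand of helper T cells, had 0 reads in every library. At 3 counts per library, the limit set by a count of 0 was 0.253 and 0.238 CPM for TL1A and 0.261 and 0.245 CPM for medium, out of all assigned reads. It was not tested.

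Among ligands that act on myeloid, stromal and other cells, Tnfsf11 had the largest difference in CPM, and Tnfsf15 the larger fold change. Tnfsf11 encodes RANKL, the osteoclast differentiation factor, which also acts on epithelium and on lymphoid stromal cells. It had 3586 and 4109 reads (333.5 and 354.3 CPM) with TL1A, against 175 and 192 reads (13.9 and 14.4 CPM) in medium. Both pairs of libraries were tight, and the 24.3-fold change (log2 fold change 4.60, 95% interval 4.38 to 4.83, edgeR adjusted p = 1.73e-07) took it to rank 630 of 9852 by CPM with TL1A, against 5916 in medium.

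Tnfsf15 encodes TL1A itself, the cytokine added to the stimulated cells. Its own transcript had 196 and 239 reads (18.2 and 20.6 CPM) with TL1A, against 10 and 5 reads (0.796 and 0.374 CPM) in medium. The fitted log2 fold change was 5.04 (95% interval 4.26 to 5.82, edgeR adjusted p = 2.45e-05), and the ratio of pooled, scaled counts was 33.6 (exact 95% counting interval 20.2 to 60.6). It was 5.65 on the log2 scale without medium replicate 1 and 4.62 without medium replicate 2. Tnfsf15 ranked 5321 of 9852 by CPM with TL1A, again without correction for length.

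Tnfsf10 encodes TRAIL, which can trigger death of cells that carry its receptor. It had 50.3 and 52.8 CPM with TL1A, against 19 and 23 CPM in medium. The 2.46-fold change was the smallest of the 7 calls (log2 fold change 1.30, 95% interval 0.95 to 1.64, edgeR adjusted p = 0.000399).

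The ligands that did not pass were Tnfsf14 and Tnfsf13b. Tnfsf14 encodes LIGHT, which binds HVEM and the lymphotoxin beta receptor. It had 18.8 and 18.3 CPM with TL1A, against 21.7 and 20.8 CPM in medium. The groups did not overlap, but the difference was small (log2 fold change -0.20, 95% interval -0.56 to 0.16, edgeR adjusted p = 0.332). That interval lies wholly below those of the 7 ligands that rose.

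Tnfsf13b encodes BAFF, a survival factor of B cells made largely by myeloid and stromal cells. It had 16 and 5 reads with TL1A, against 18 and 28 reads in medium, and the groups overlapped with TMM scaling (1.49 and 0.431 CPM with TL1A, 1.43 and 2.1 CPM in medium) but not by plain library totals (1.35 and 0.397 CPM with TL1A, 1.57 and 2.29 CPM in medium). The interval of its log2 fold change ran from -2.35 to 0.56 around -0.89 (edgeR adjusted p = 0.29), and leaving out TL1A replicate 1 gave -2.004 and leaving out TL1A replicate 2 gave -0.24.

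**Figure D2:**
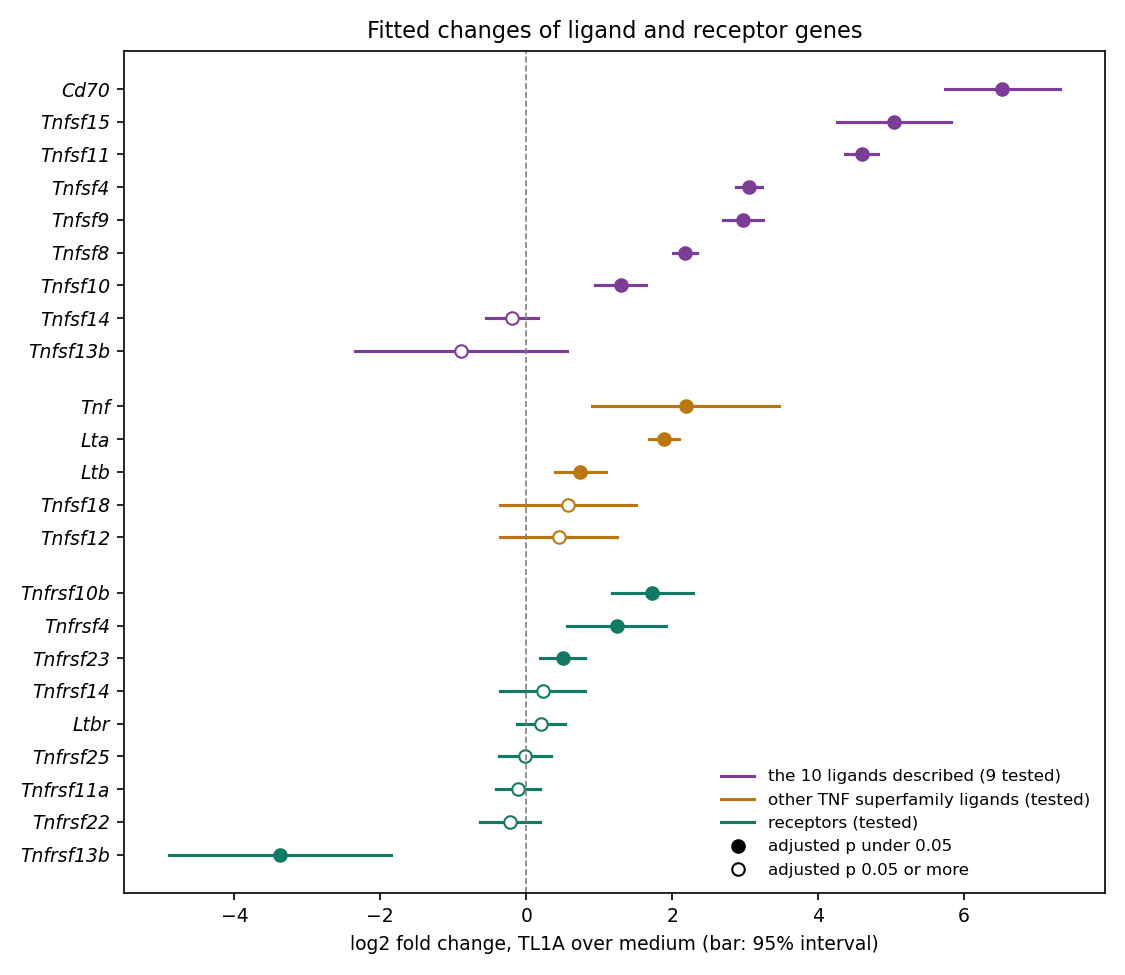
Fitted log2 fold changes, TL1A over medium, with 95% intervals, for the tested ligands described, the other tested TNF superfamily ligands and the tested receptors; filled points passed the test. The 7 ligands described that passed run from Tnfsf10 (1.30) to Cd70 (6.53), the other ligands from Tnfsf12 (0.44) to Tnf (2.19), and the receptors from Tnfrsf13b (-3.37) to Tnfrsf10b (1.73).

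Levels can be compared between genes only per transcript length, for which the length of the GENCODE transcript tied to each RefSeq row was used (842 nucleotides for Cd70 to 4993 for Tnfsf10). Summed over the 10 ligands, the level was 1297 and 1256 CPM per kb with TL1A, against 156.2 and 168.4 CPM per kb in medium. Tnfsf4 made up the largest share of this sum, 64% and 63.2% with TL1A and 59.4% and 61.1% in medium. Tnfsf11 took 11.5% and 12.6% with TL1A, against 3.99% and 3.82% in medium, and stood at place 2 in the TL1A order, against place 5 in the medium order. Tnfsf8 took 8.78% and 9.18% with TL1A, against 16.4% and 15% in medium.

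With TL1A the order of levels per kb was Tnfsf4, Tnfsf11, Tnfsf9, Tnfsf8, Cd70, Tnfsf10, Tnfsf14, Tnfsf15 and Tnfsf13b, with means from 812.4 CPM per kb for Tnfsf4 to 0.201 for Tnfsf13b. In that order only Tnfsf10 and Tnfsf14 had overlapping libraries among neighbours. In medium the order was Tnfsf4, Tnfsf8, Tnfsf9, Tnfsf14, Tnfsf11, Tnfsf10, Cd70, Tnfsf13b and Tnfsf15, with means from 97.8 to 0.175 CPM per kb, and only Cd70 and Tnfsf13b overlapped among neighbours. Tnfsf14 took 7.54% and 6.7% of the sum in medium but 0.784% and 0.788% with TL1A, while its own level per kb was 10.2 and 9.9 with TL1A and 11.8 and 11.3 in medium. These orders hold for counted reads of 1 transcript per gene.

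**Figure D3:**
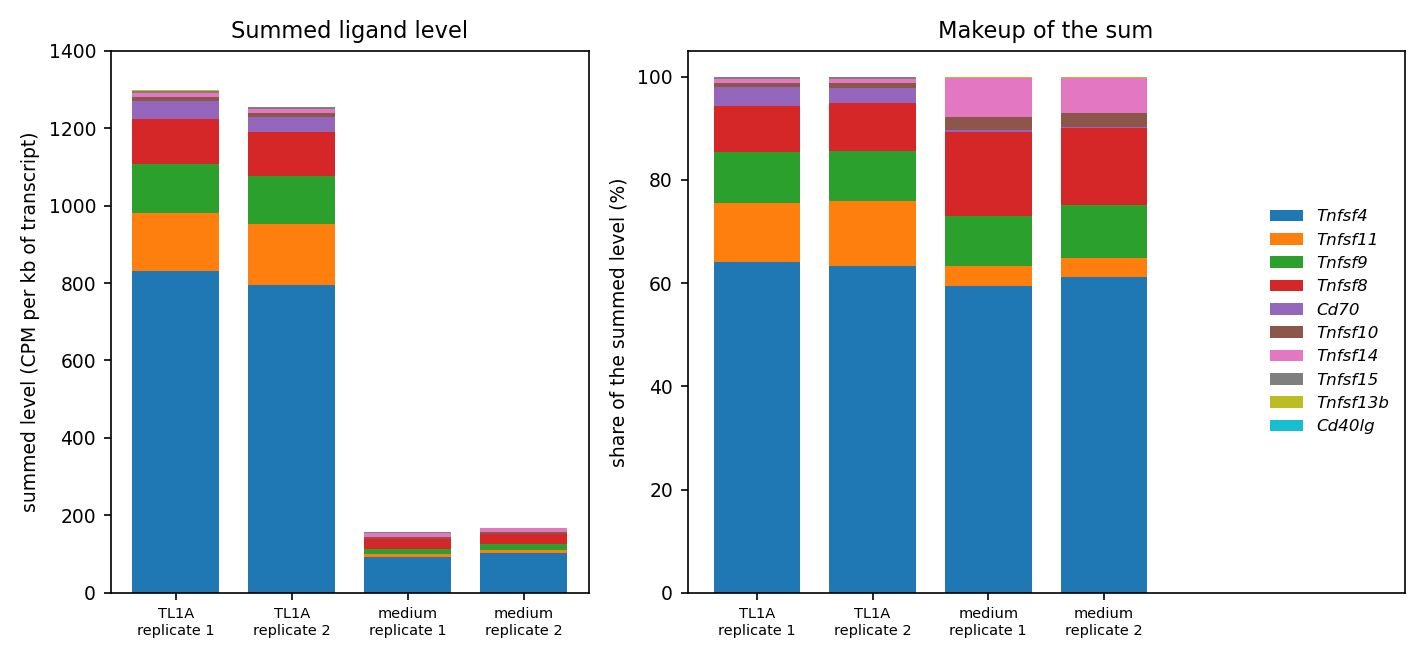
Left, the summed level of the 10 ligand genes in each library in CPM per kb of transcript; right, the share of each gene in that sum in percent, TL1A libraries left of medium libraries. The sum reaches 1297 and 1256 with TL1A and 156.2 and 168.4 in medium, and Tnfsf4 is the largest piece in every library.

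Several of the ligand genes are neighbours on their chromosomes, with no protein-coding gene between them in the RefSeq order (GRCm38.p6, used for order only). Tnfsf9, Cd70 and Tnfsf14 lie in a row on chromosome 17, where Tnfsf9 and Cd70 rose and Tnfsf14 had a log2 fold change of -0.20. Tnfsf15 and Tnfsf8 are neighbours on chromosome 4, and both rose. Tnfsf4 lies next to Tnfsf18 on chromosome 1, followed by Fasl. Tnfsf18, which encodes GITRL, a further costimulator, had 94 and 46 reads with TL1A and 57 and 53 in medium (log2 fold change 0.57, edgeR adjusted p = 0.285), and its log2 fold change was 1.05 with an adjusted p of 0.0344 without TL1A replicate 2 and -0.093 without TL1A replicate 1. Fasl, the death ligand gene, had 0 reads in every library, and reads shared between its 2 deposited rows were not counted.

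Of the 8 other ligands of the superfamily, 5 were tested, of which 3 rose, none fell and 2 did not pass, with a median log2 fold change of 0.74. Over all genes tested, 20.6% were called higher and 42.3% in either direction. Tnf, among those that rose, had enough reads for the test only through its TL1A libraries. Lta, which encodes lymphotoxin alpha, had 452.7 and 431.1 CPM with TL1A, against 112.4 and 126.5 CPM in medium. Ltb, the gene of its membrane partner lymphotoxin beta, had 31.4 and 28.5 CPM with TL1A, against 17.5 and 18.3 CPM in medium (edgeR adjusted p = 0.00588, log2 fold change 0.74). Tnf had only 26 and 26 reads with TL1A and 9 and 4 in medium (log2 fold change 2.19, SE 0.55, edgeR adjusted p = 0.0155), and its call was lost with DESeq2 (adjusted p = 0.0541) and without TL1A replicate 1 (0.0815), TL1A replicate 2 (0.0637) or medium replicate 2 (0.0841). Tnfsf12, the TWEAK gene, had 56 and 56 reads with TL1A and 34 and 62 in medium (log2 fold change 0.44, adjusted p = 0.337). Tnfsf13 and Eda had 0 reads in every library, each with several deposited rows. The spans of Tnfsf12 and Tnfsf13 overlap Tnfsfm13, which has its own deposited row with 0 reads in every library. Any reads in exons shared with it were not counted.

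The receptors of these ligands gave no single direction. Of 16, 9 were tested, 3 rose, 1 fell and 5 did not pass, with a median log2 fold change of 0.20. The 1 that fell, Tnfrsf13b, had enough reads for the test only through its medium libraries. A called share of 4 in 9 is near the 42.3% of all tested genes, and the call of Tnfrsf23 was lost in 3 of 4 fits with a library left out. Tnfrsf4, the OX40 gene, had 6.6 and 7.41 CPM with TL1A, against 2.55 and 3.37 CPM in medium (log2 fold change 1.24, SE 0.29, edgeR adjusted p = 0.0116), so the receptor gene of OX40L rose with its ligand but on only 71 and 86 reads with TL1A and 32 and 45 in medium. Its span overlaps that of Sdf4. Tnfrsf10b, the mouse TRAIL receptor that carries a death domain, had 19.9 and 15.3 CPM with TL1A, against 5.97 and 4.64 CPM in medium (log2 fold change 1.73, SE 0.24, edgeR adjusted p = 0.000998).

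The mouse TRAIL decoy receptors had smaller fold changes. Tnfrsf23 had 38.5 and 37.6 CPM with TL1A and 27 and 26.7 CPM in medium (log2 fold change 0.50, SE 0.13, edgeR adjusted p = 0.0182), a call lost without TL1A replicate 1 (0.0728), TL1A replicate 2 (0.0577) or medium replicate 1 (0.0542). Tnfrsf22 had a log2 fold change of -0.22 (95% interval -0.63 to 0.18).

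Tnfrsf13b encodes TACI, a receptor of BAFF. It had 2 and 13 reads with TL1A, against 118 and 62 reads in medium. It had enough reads for the test only through its medium libraries, so only a call of lower was open to it. Its log2 fold change was -3.37 (95% interval -4.90 to -1.85, edgeR adjusted p = 0.00497). No TL1A library reached the medium libraries, but the value ran from -5.15 without TL1A replicate 2 to -2.63 without TL1A replicate 1. Its span overlaps Usp22. The other BAFF receptor genes, Tnfrsf13c and Tnfrsf17, had at most 5 reads in any library.

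The RANKL receptor gene Tnfrsf11a had 36.7 and 35.5 CPM with TL1A and 40.7 and 37.3 CPM in medium (log2 fold change -0.11, 95% interval -0.41 to 0.19), and the gene of the RANKL decoy osteoprotegerin, Tnfrsf11b, had 7 and 0 reads with TL1A and 12 and 0 in medium. The LIGHT receptor genes Tnfrsf14 and Ltbr had log2 fold changes of 0.23 (95% interval -0.35 to 0.81) and 0.20 (-0.12 to 0.53). Tnfrsf25, the gene of the TL1A receptor DR3, had 54.2 and 69.3 CPM with TL1A and 67.5 and 57.2 CPM in medium over its 2 rows (log2 fold change -0.013, 95% interval -0.37 to 0.35). Its rows changed unequally (edgeR diffSpliceDGE, adjusted p = 0.00701). Transcript NM_001291010, with most reads over all libraries, had 435 and 598 reads with TL1A and 416 and 379 in medium (log2 fold change 0.58, edgeR adjusted p = 0.0246 when it alone stood for the gene), and NM_033042 had 148 and 206 with TL1A and 432 and 385 in medium. Cd27 and Cd40 had at most 7 reads in any library and Tnfrsf8, the CD30 gene, at most 2, while Tnfrsf9, the 4-1BB gene, had 4 and 16 reads with TL1A and 1 and 1 in medium; Cd27, Cd40 and Tnfrsf9 have several deposited rows, so reads in their shared exons were not counted.

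**Figure D4:**
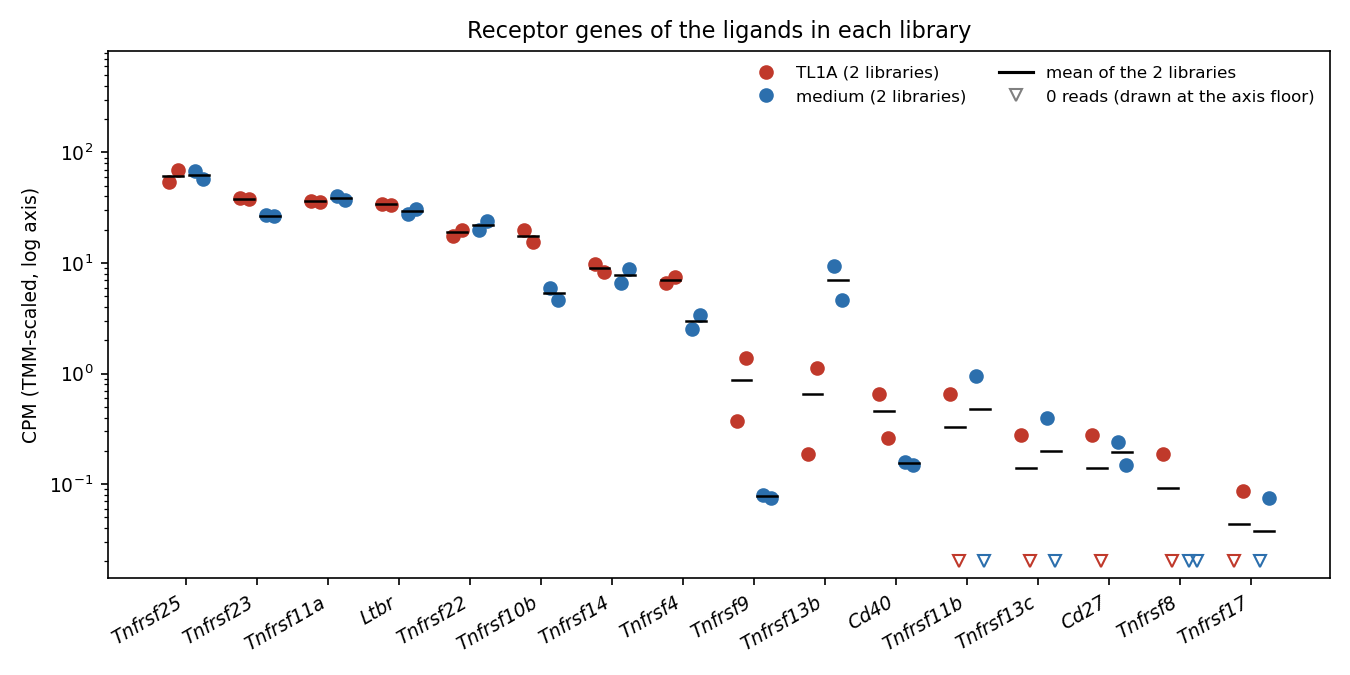
Level of each of the 16 receptor genes in each library, in CPM (TMM-scaled) on a log axis, TL1A left of medium; points are libraries and bars their mean. Tnfrsf10b and Tnfrsf4 are higher and Tnfrsf13b is lower with TL1A, and 7 receptors with few reads, from Tnfrsf9 to Tnfrsf17, were not tested.

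Downstream of the receptors, 11 of 15 tested TRAF and NF-κB genes rose, none fell and 4 did not pass, with a median log2 fold change of 1.35. Over all genes tested, 20.6% were called higher and 42.3% in either direction. Tnfaip3, among those that rose, had enough reads for the test only through its TL1A libraries (61 and 77 reads, against 0 and 1 in medium). The adaptor gene Traf1 had 3719 and 3423 CPM with TL1A, against 585.9 and 674.8 CPM in medium. Nfkbie, an inhibitor of NF-κB, had 1142 and 1210 CPM with TL1A, against 178 and 145.8 CPM in medium. Birc3, a ubiquitin ligase of TNF receptor complexes, rose 2.55-fold (edgeR adjusted p = 4.69e-06), and the subunit gene Nfkb1 rose 2.11-fold (adjusted p = 2.58e-05). Traf2 had 0 reads in every library, and reads shared between its 2 deposited rows were not counted.

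Cell types other than ILC3s are known sources of several of these ligands, so their markers are given here. The 10 myeloid and dendritic cell genes summed to 747 and 732 CPM with TL1A, against 1653 and 1826 CPM in medium. Most of that sum was Fcer1g, which NK cells and some innate lymphoid cells also express, with 703 and 678 CPM with TL1A and 1560 and 1720 CPM in medium. Of 9 tested, 3 fell, Fcer1g, Cd14 (log2 fold change -3.18) and Mpeg1 (-1.90), and 1 rose. Over all genes tested, 21.7% were called lower and 42.3% in either direction. The 1 that rose was the macrophage gene Adgre1 (log2 fold change 0.91, edgeR adjusted p = 0.0312). It had 143 and 220 reads with TL1A and 130 and 92 in medium. Its adjusted p was 0.141 when TL1A replicate 2 was left out and 0.099 when medium replicate 2 was. The dendritic cell genes Itgax and Flt3 did not pass and had 9 and 9, and 0 and 7, reads with TL1A, against 13 and 41, and 21 and 17, in medium. The 6 B cell genes summed to 849.4 and 777.3 CPM with TL1A, against 153.8 and 166.9 CPM in medium, through Blk and Cd79b, which rose. Pax5 and Ms4a1 had 0 reads in every library and Cd79a had 1 and 1 reads with TL1A and 8 and 8 in medium. The T cell genes summed to 211.5 and 206.2 CPM with TL1A, against 497.6 and 513.6 CPM in medium, mostly from Cd4 and Lat. Of 5 tested, 2 fell, Cd4 (log2 fold change -1.97) and Cd28 (-3.03), and 3 did not pass. Cd28 had enough reads for the test only through its medium libraries (5 and 4 reads with TL1A, against 21 and 67 in medium). Cd3e had 20 and 16 reads with TL1A and 0 and 16 in medium, and Cd3g had 26 and 40 with TL1A and 19 and 44 in medium. The epithelial and stromal genes summed to at most 13.7 CPM in any library, with 0 reads of Col1a1 throughout and 13 reads of Col3a1 in TL1A replicate 2 alone. The part of other cells in the ligand values was not tested.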

How the data were processed

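Per the labels' protocols, a SMARTer Ultra Low Input kit was used for cDNA. Per the submitters' processing notes, the tools were CASAVA, STAR and HTSeq and the build was mm9; versions, strand setting and annotation were not stated. The authors deposited raw read counts for 33535 RefSeq transcript rows, so that reads in exons shared by several rows were not counted; such ambiguous reads made up 33.7% to 34% of the assigned and ambiguous reads together. The 5 HTSeq summary rows, 69.9% to 71.3% of the numbers in a column, were left out. Rows were matched to symbols through a RefSeq table of GRCm38.p6 (33154 matched) and summed per gene. The 10 members and all lists were chosen with earlier results of these data known.

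Counts were tested with edgeR 4.0.16 in R 4.3.3: filterByExpr with a minimum count of 10, TMM, then the quasi-likelihood fit and F test with only the condition in the model, two-sided, with Benjamini-Hochberg adjustment over 9852 genes. TMM factors were 0.908 and 0.921 for TL1A and 1.09 and 1.09 for medium. The standard error is the log2 fold change divided by the square root of F, and intervals use the test's degrees of freedom. As 2 against 2 libraries allow no exact permutation p under 0.333, p-values rest on spread pooled over genes. The test was also run on simulated counts with the same dispersion for every gene. That setting differs from these data, so the run lends the p-values here no support. Alternatives were RLE and upper-quartile factors, no filter, DESeq2 1.42.0, limma-voom 3.58.1, the replicate number as a block, other use of rows, and each library left out. The rule named the members, their receptors, the tested other ligands, the 4 called TRAF and NF-κB genes with the smallest p, and the 3 nearest to Tnfsf4. Fasl, Tnfsf13, Eda, Traf2, Tnfaip3 and Nfkb2, outside it, were named after their values were seen. Some marker genes of the lists are not reported here.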

Additional observations from a re-analysis of the deposited data

How the results depend on the processing

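The same 7 ligands were called higher under all 13 alternatives run, including single libraries left out, and neither Tnfsf14 nor Tnfsf13b was called under any. The log2 fold change of Tnfsf4 ran from 2.97 to 3.16 and that of Tnfsf11 from 4.54 to 4.65, while those of Cd70 (6.03 to 7.27) and Tnfsf15 (4.62 to 5.65) depended on which thinly read medium library was left out. With the replicate number as a block, Tnfsf4 changed by 3.06 and the genes called numbered 1736 higher and 1806 lower, against 2027 and 2141 without it; no ligand call changed. Deviations of same-numbered libraries correlated at -0.143, and crossing the numbers, chosen after seeing the data, gave 2295 higher and 2439 lower. Signs turned for some genes that were never called in the main test. Tnfrsf25 was at 0.013 with RLE factors, at 0.013 with DESeq2 and at 0.58 with its best-read row alone, and between -0.19 and 0.16 with a library left out. Tnfsf18 ran from -0.093 to 1.05 and the NF-κB subunit gene Nfkb2 from -1.11 to 1.72 with a library left out; the causes were not tested. Scaling by plain library totals moved 10 of 20 ligand CPM means by more than the replicate SD, lower with TL1A and higher in medium. Longest against shortest transcript gave no other order, as each ligand matched 1 transcript. Depth limits Tnfsf13b, Cd40lg and the medium levels of Cd70 and Tnfsf15.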
